A study of Mus musculus with 18 samples.

Results

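The genes described here encode the respiratory chain: subunits of complexes I to V and the assembly factors of complex I, from both the mitochondrial and the nuclear genome. They were chosen by name, as protein-coding rows whose mouse symbol began with mt-Nd, mt-Co, mt-Cyb, mt-Atp, Nduf, Uqcr, Cox4 to Cox8 or Atp5, or was Sdha, Sdhb, Sdhc or Sdhd. The rule took 106 of 34162 rows, with 105 different symbols because Atp5o has a pair of rows. Of these, 12 genes lie on mitochondrial DNA and 94 in the nucleus. mt-Cytb, the mitochondrially encoded subunit of complex III, is spelled in a way the rule does not match, so its values are given only beside the others. Cyc1, the cytochrome c1 subunit of complex III, does not match the rule either and is given only with the electron carriers.

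The libraries were made from CD4+ effector T cells that had been sorted 3 weeks after T cell transfer into Rag-deficient mice, hosts that lack T and B cells of their own, with about 500 cells per library. Donor cells were labelled either C57BL/6 CD45.1+, the wild type, or C57BL/6 Nr1i3-/-, in which the nuclear receptor CAR is missing. Cells of both genotypes were taken from the spleen, the colonic lamina propria (cLP) and the small intestinal lamina propria (siLP), the connective tissue under the gut epithelium, which gave 6 groups of 3 libraries. The table names its columns by CD45.1 status, and the CD45.1-negative columns were taken as CAR-deficient because no other cells were compared. Within a group the columns differ only in their ending, called a, b and c here. The labels do not say what the endings stand for, nor whether they came from different mice, so each p-value rests on the spread among libraries of a group, which may be technical.

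The respiratory chain passes electrons from NADH and succinate to oxygen through complexes I to IV, and complex V, the ATP synthase, uses the resulting proton gradient to make ATP. Complex II is encoded wholly in the nucleus, whereas complexes I, III, IV and V mix nuclear subunits with a few hydrophobic core subunits that are transcribed inside the organelle as long polycistronic RNAs. T cells are known to expand their mitochondria after activation, so that both genomes have to supply subunits at the same time.

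Total estimated counts ran from 19605316 to 25436582 per library, and at these depths 3 counts correspond to 0.108 to 0.185 CPM (counts scaled to library size by the TMM method). The 6 libraries of ending a stood apart from the other 12: they had 15393 to 16088 detected genes against 16977 to 18749. Counts of Nr1i3, the deleted gene, were under 3 in 10 of the 18 libraries and gave no check of the labels in most of them, with 0 to 36 in the 9 wild-type libraries, 5 of them at 0. Of the libraries labelled CAR-deficient, spleen b and c had 14 each, cLP b 29 and cLP c 1. The highest count, 196, was that of the library labelled siLP CAR-deficient a, and the leading values of the siLP and ending comparisons are also given without it. The 5 T cell markers Cd3e, Cd3g, Cd4, Trac and Lck summed to 9200 to 10600 CPM in the libraries a and to 5310 to 8630 CPM in the others. Summed CD8 and NK markers were at most 13.9 CPM and B and plasma cell markers at most 6.96 CPM, whereas erythroid markers were at 59.5 to 1000 CPM in spleen. Epithelial markers reached 216 CPM in 1 library, CAR-deficient cLP b, where Lgals4 alone had 126 CPM, and their median in cLP was 25.3 CPM. Among single markers of other cell types, Ncr1, Adgre1, Krt20 and Alas2 were at 0 in all libraries a. They were low in the other libraries too, with means of 1.12, 1.23, 0.16 and 1.65 CPM, and all but Adgre1 were at 0 in some of them. The summed lists did not all go this way. The median sums in the libraries a and in the others were 3.5 and 9.45 CPM for CD8 and NK and 0.614 and 0.694 CPM for B and plasma cell markers. They were 38.7 and 16.8 CPM for macrophage, monocyte and neutrophil, 16.6 and 10.5 CPM for epithelial and 11.7 and 1.66 CPM for erythroid markers. Lyz2 held most of the first of these sums, with means of 35.0 and 27.3 CPM. Fitted gene by gene, 1 of the 5 macrophage, monocyte and neutrophil markers was higher in the libraries a and 4 were lower. Of the 5 epithelial markers tested 2 were higher and 3 lower, and of the 3 erythroid markers 2 were higher and 1 lower. Stromal markers had median sums of 89.5 and 63.8 CPM, most of it Pecam1, with means of 86.8 and 55.0 CPM. The collagen genes went the other way, with means of 1.71 and 4.82 CPM for Col1a1 and 1.93 and 12.85 CPM for Col1a2.

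Levels scaled by gene length allow genes to be compared, and are given as TPM computed from the counts and 1 annotated transcript length per gene. On this scale the 12 mitochondrially encoded genes held nearly as large a share of all transcripts as the 94 nuclear ones. Over the 18 libraries the mitochondrial members summed to 4.18% ± 0.650 of TPM (SD, n = 18) and the nuclear members to 4.61% ± 0.722. The largest single block was the 3 mitochondrially encoded subunits of complex IV, the cytochrome c oxidase, at 2.53% ± 0.359. It was followed by nuclear complex I at 1.45% ± 0.306, nuclear complex IV at 1.37% ± 0.211 and nuclear complex V at 1.18% ± 0.130. Mitochondrial complex V held 1.00% ± 0.199, mitochondrial complex I 0.650% ± 0.130 and nuclear complex III, without Cyc1, 0.476% ± 0.0983. Complex II, the succinate dehydrogenase that also serves the citric acid cycle, was the least abundant complex at 0.0994% ± 0.0147, and the complex I assembly factors held 0.0336% ± 0.00630. These shares are parts of a fixed sum in each library, so a change elsewhere in the library moves them too.

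Among the mitochondrial genes the subunits of complex IV and the proton channel of complex V led. mt-Co3, a core subunit of complex IV, had the highest mean level at 11420 TPM, ahead of mt-Atp6, the proton-channel subunit of the ATP synthase, at 8372 TPM and mt-Co2 at 7639 TPM. mt-Co1, the subunit that holds the oxygen-reducing site, averaged 6238 TPM and mt-Atp8 1674 TPM. These levels leave out counts given to chromosome 1 copies, which for mt-Co1 came to 28.3 to 41.4% of the pair, so the place of mt-Co1 in this order depends on how those reads were divided. The complex I genes were lower and spread widely, from 2598 TPM for mt-Nd1 to 204 TPM for mt-Nd4l, with mt-Nd4 at 1253, mt-Nd2 at 665, mt-Nd3 at 640, mt-Nd6 at 630 and mt-Nd5 at 508 TPM. mt-Nd6 is the only member on the other strand of the mitochondrial genome (GRCm38 chrM:13552-14070), where its end overlaps that of mt-Nd5. The cDNA kit named in the labels does not mark strand, so reads in that overlap, and in those of mt-Atp8 with mt-Atp6 and of mt-Nd4l with mt-Nd4, cannot be assigned with certainty.

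The nuclear members spanned wide ranges of level within each complex. In complex I, mean levels ran from 1384 TPM for Ndufa1, a small accessory subunit, to 37.5 TPM for Ndufs1, the largest iron-sulphur subunit. Complex III ran from 1253 TPM for Uqcrh, the hinge subunit, to 105 TPM for the core subunit Uqcrc1, and complex II from 687 TPM for the iron-sulphur subunit Sdhb to 38.4 TPM for the flavoprotein Sdha. In complex V, Atp5h, a stalk subunit, averaged 1814 TPM and Atp5s 9.98 TPM, and among the assembly factors Ndufaf8 averaged 73.8 TPM and Ndufaf6 17.0 TPM.

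Of the paired isoforms of complex IV, the ubiquitous forms were the ones present. Cox4i1 averaged 1725 TPM against 0.113 TPM for Cox4i2, the form known from lung and low oxygen, and Cox6a1 averaged 1261 TPM against 1.45 TPM for the muscle form Cox6a2. Cox8a, the most abundant nuclear member of complex IV, was at 1844 TPM, Cox8b, another muscle form, at 0.740 TPM, and Cox8c was listed at 0 in all 18 libraries. Cox7a2 averaged 1190 TPM, its relative Cox7a2l, which takes part in supercomplexes, 236 TPM and the muscle form Cox7a1 6.58 TPM. Each pair was therefore carried by 1 form. Cox6b1 averaged 1293 TPM and the testis form Cox6b2 5.72 TPM, and Ndufa4 averaged 1144 TPM and Ndufa4l2 0.0310 TPM. For subunit c of the ATP synthase, which is encoded by 3 genes with the same mature protein, Atp5g3 averaged 1151 TPM, Atp5g1 122 TPM and Atp5g2 101 TPM, and the value of Atp5g1 rests on an annotated transcript of 4715 bases. A filter on low counts kept 100 members for testing, all 12 mitochondrial genes among them, and removed Cox4i2, Cox8b, Cox8c, Cox7b2, Ndufa4l2 and the second row of Atp5o.

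The share of TPM of the mitochondrial members was read library by library, in the order a, b, c. Wild-type spleen had 4.94, 4.62 and 4.58% and CAR-deficient spleen 4.84, 3.99 and 3.68%. Wild-type cLP had 4.82, 3.93 and 3.44% and CAR-deficient cLP 4.83, 4.38 and 3.43%. Wild-type siLP had 4.90, 3.68 and 3.23% and CAR-deficient siLP 5.08, 3.65 and 3.33%. Library a was the highest of its group in all 6 groups, and the genotypes overlapped in every organ. The nuclear members had 5.68, 4.17 and 4.80% in wild-type spleen and 6.08, 4.20 and 4.44% in CAR-deficient spleen. In cLP the nuclear share was 5.99, 3.75 and 4.16% for wild-type cells, followed by 5.47, 4.05 and 4.14% for CAR-deficient cells. In siLP it was 4.81, 4.36 and 4.25%, followed by 3.86, 4.58 and 4.12%. Library a was highest in 5 of the 6 groups for the nuclear share, and the library labelled siLP CAR-deficient a was the lowest of its group. The ratio of the mitochondrial to the nuclear share ran from 0.760 to 1.32, and that library had the highest value.

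**Figure D1:**
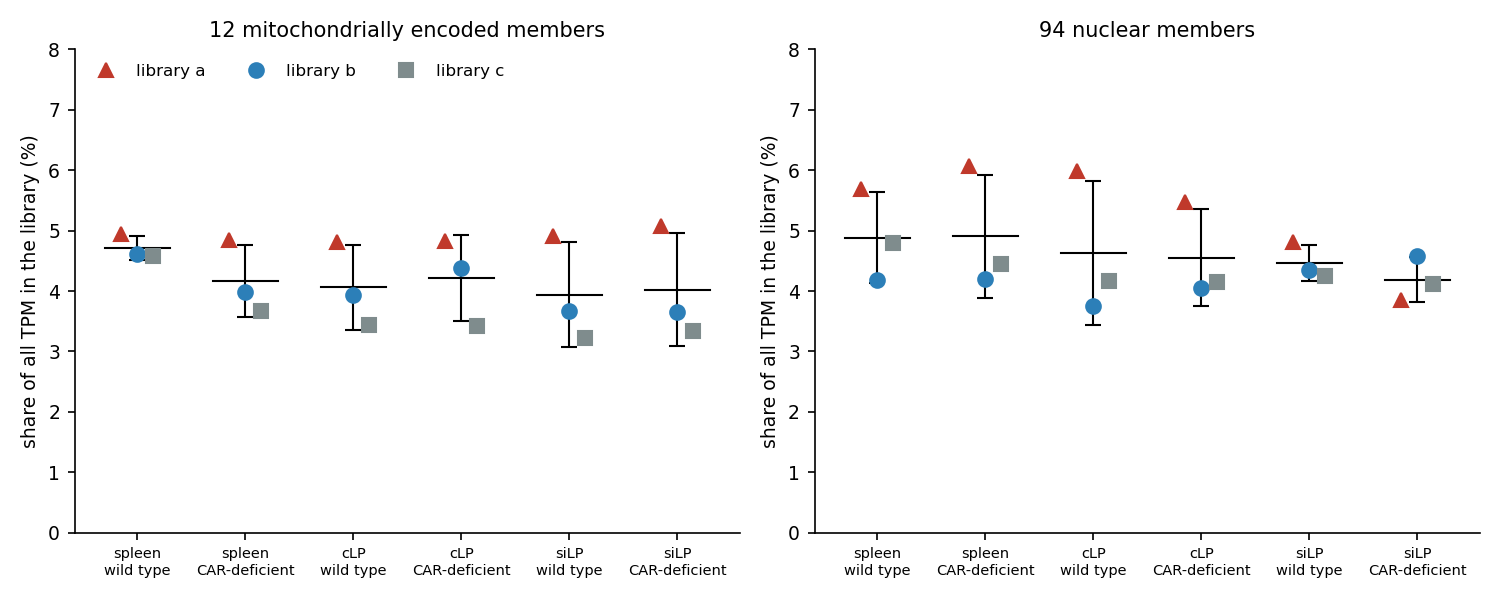
Share of all TPM (%) held by the 12 mitochondrially encoded (left) and 94 nuclear (right) respiratory chain genes in each of the 18 libraries, by organ and genotype. Symbols mark the column endings a, b and c and bars the mean ± SD of each group (n = 3), and the libraries a lie highest for the mitochondrial genes in all 6 groups.

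The comparison of genotypes asks whether loss of CAR changed the respiratory chain of the transferred T cells. No member passed the test between CAR-deficient and wild-type cells averaged over the organs: by edgeR's quasi-likelihood test 0 of 100 were called at an adjusted p under 0.05, against a background of 0.0134% of the 14876 genes tested. 1 member had an unadjusted p under 0.05, and DESeq2 called 0. For such counts, here and in the other comparisons, the share of all genes is not given. The median log2 fold change of the members was -0.04 against -0.01 over all genes, and 69 of the 100 were below 0. It was -0.01 for the mitochondrial and -0.05 for the nuclear members, and without the libraries a the median of all members was 0.01, with 47 of 100 below 0. With 1 library left out at a time the median ran from -0.20, without CAR-deficient spleen a, to 0.16, without wild-type cLP a. In bulk RNA a lower value can mean fewer cells of a type or less RNA per cell, which cannot be told apart.

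Atp5g3, a gene for subunit c of the ATP synthase (GRCm38 chr2:73908447-73911326), had the smallest p. In spleen its wild-type libraries a, b and c were at 836, 668 and 664 CPM and its CAR-deficient libraries at 699, 664 and 508 CPM. In cLP the wild-type values were 896, 639 and 549 CPM, next to 513, 549 and 475 CPM without CAR. The siLP values were 781, 662 and 537 CPM against 472, 510 and 534 CPM. The genotypes overlapped in spleen, met at 549 CPM in cLP and did not overlap in siLP, where the nearest libraries differed by little. The log2 fold change was -0.34 ± 0.13 (SE) with an adjusted p of 0.717 by edgeR, and it ran from -0.40 to -0.21 over the alternatives, with adjusted p from 0.282 to 0.945. Its sister gene Atp5g2 had -0.31 ± 0.19 (edgeR adjusted p = 0.961), also short of the threshold.

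Within the organs the edgeR test called 0 of 100 members each time, with 0 members at an unadjusted p under 0.05, 0 called by DESeq2 and a background of 0% of all genes. The members with the smallest p in siLP were Atp5g3 at -0.38 ± 0.23, Uqcrfs1, the Rieske iron-sulphur protein, at -0.23 ± 0.23 and Ndufs7 at 0.19 ± 0.21 on the log2 scale. Without the library labelled siLP CAR-deficient a they had -0.34, -0.17 and 0.08. Those in cLP were Atp5g3 at -0.44 ± 0.23, Cox7a2l at 0.40 ± 0.23 and Atp5c1, the central stalk subunit gamma, at -0.33 ± 0.19. Those in spleen were mt-Nd3 at -0.44 ± 0.32, Ndufa10 at -0.25 ± 0.24 and Atp5s at 0.66 ± 0.64. With the counts of the chromosome 1 copies added, an alternative chosen after seeing the data, mt-Nd3 had -0.08 ± 0.32 in spleen. The difference of the genotype effect between siLP and spleen, and between cLP and spleen, gave 0 of 100 members, 0 at an unadjusted p under 0.05, 0 by DESeq2 and a background of 0%. Sdha had the smallest p of the second, at -0.59 ± 0.34.

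Counting members whose 3 CAR-deficient libraries all lay on one side of the 3 wild-type ones gave few names. In spleen Sdha and Cox6a2 lay above (background 3.23% of genes) and Ndufaf6 below (3.09%). In cLP Cox7a2l lay above (4.09%) and Atp5g3, Atp5c1 and Uqcrfs1 below (3.32%). In siLP the complex I assembly factor Ndufaf2 lay above (3.8%) and Atp5g3 below (4.52%). Each of these counts, out of 100 members, was a smaller share than its background. Over all 18 libraries no member had every CAR-deficient library above (background 0.0134%) or below (0.00672%) every wild-type one.

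mt-Nd3, a core subunit of complex I (GRCm38 chrM:9459-9806), is the member for which the genotypes differed in the counts given to a nuclear copy. The cause of that difference was not tested. Its first 30 bases and those of Gm28438, a nuclear copy of 345 bases at chr1:24612775-24613119 on the minus strand, are shown because the pair differs at a single base, T3C counted from the first base of mt-Nd3, which is position 9461 of the mitochondrial genome. Capitals mark that base.
mt-Nd3: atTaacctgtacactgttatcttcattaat
Gm28438: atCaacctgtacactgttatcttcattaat

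In wild-type libraries nearly all counts of the pair went to mt-Nd3. Wild-type spleen had 5040, 4672 and 5094 counts for mt-Nd3 and 0, 0 and 0 for Gm28438, wild-type cLP 5223, 2881 and 3912 against 39, 0 and 0, and wild-type siLP 3853, 3525 and 4635 against 117, 0 and 0. In CAR-deficient libraries the copy took 578 counts or more. CAR-deficient spleen had 3755, 3319 and 2547 counts for mt-Nd3 and 728, 950 and 1149 for Gm28438. CAR-deficient cLP had 3191, 2670 and 2511 against 1275, 578 and 851, and CAR-deficient siLP 3604, 2254 and 3716 against 843, 818 and 1403. The copy therefore held 16.2 to 31.1% of the pair's counts in the 9 CAR-deficient libraries and 0 to 2.95% in the 9 wild-type libraries, with no overlap. The library labelled siLP CAR-deficient a, where Nr1i3 had 196 counts, lay with the CAR-deficient libraries here.

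Read as levels, Gm28438 was at 28.5 to 78.6 CPM in CAR-deficient and at most 5.27 CPM in wild-type libraries. Its fitted log2 fold change of 7.89 ± 1.32 had an adjusted p of 0.132 by edgeR and is no bound, because most wild-type libraries were at 0. mt-Nd3 itself had -0.36 ± 0.19 (edgeR adjusted p = 0.897), the most negative value of the mitochondrial genes. When the counts of the copies on chromosome 1 were added to their mitochondrial genes, an alternative chosen after seeing the data, mt-Nd3 had 0.02 ± 0.18. Whether reads of the CAR-deficient libraries carry the base of the copy was not tested.

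**Figure D2:**
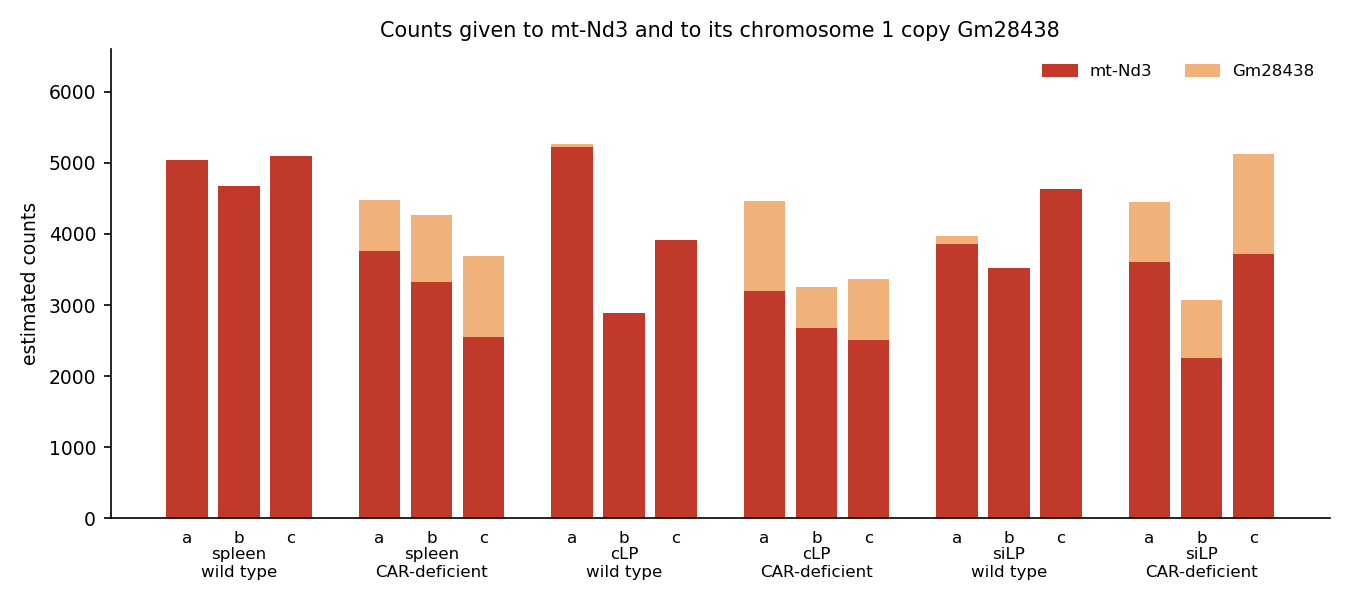
Estimated counts given to mt-Nd3 (red) and, stacked on it, to its chromosome 1 copy Gm28438 (orange) in each library, by group, with the column endings a, b and c under the bars. The 9 CAR-deficient libraries have 578 to 1403 counts on the copy and the 9 wild-type libraries at most 117.

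Other mitochondrial genes also have copies in the same stretch of chromosome 1 (24611535 to 24616197), and these took counts in both genotypes. Gm29216 shares 492 bases with mt-Co1 and differs from it at 6 bases, T1056A, C1057T, A1059G, A1060G, C1062A and A1066T counted from the first base of mt-Co1. Bases 1054 to 1083 of mt-Co1 and the same stretch of the copy are shown because all 6 lie there, in capitals.
mt-Co1: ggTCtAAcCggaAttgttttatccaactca
Gm29216: ggATtGGcAggaTttgttttatccaactca

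Gm29216 was given 45902 to 132919 counts against 103974 to 223811 for mt-Co1, or 28.3 to 41.4% of their sum. Gm10925, without a mismatch to mt-Atp6 over 678 bases, held 4.29 to 22.4% of the pair's counts, and Gm28437, a copy of mt-Co3, 0.421 to 2.72%. Gm28661, a copy of mt-Co2, had 0 to 3 counts, and the copies of mt-Nd4 and mt-Nd4l had 0 in all libraries. The levels of mt-Co1, mt-Atp6 and mt-Nd3 depend on how reads of each pair were divided, and nuclear pseudogenes of nuclear members were not searched for.

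The organs were compared to ask whether T cells from the gut carried the same respiratory chain transcripts as T cells from the spleen. Members leaned lower in siLP than in spleen without passing the test: edgeR called 0 of 100 against a background of 0.847%, 1 had an unadjusted p under 0.05 and DESeq2 called 0. All 12 mitochondrial genes and 84 of the 88 nuclear genes tested were below 0, with a median log2 fold change of -0.28 for either class and -0.01 over all genes. By complex the medians were -0.34 for complex I, -0.31 for its assembly factors, -0.13 for complex II, -0.21 for complex III, -0.24 for complex IV and -0.22 for complex V. The lean of the nuclear members was smaller without the libraries a. Then 63 of 100 members were below 0, and the median was -0.05 for nuclear and still -0.28 for mitochondrial members. Leaving out CAR-deficient spleen a alone moved the median of all members from -0.28 to -0.08, leaving out wild-type spleen a gave -0.14, and leaving out the library labelled siLP CAR-deficient a gave -0.31. With the column ending as a replicate block, 1 member passed, mt-Co3 at -0.36 ± 0.08 (edgeR adjusted p = 0.0425), and the share of all genes called in that fit is not given here. Erythroid markers were at 59.5 to 1000 CPM in spleen and 0.686 to 9.46 CPM in siLP. Summed macrophage, monocyte and neutrophil markers were at 3.45 to 12.1 and 24.8 to 123 CPM. Only 1 of these 5 markers was higher in siLP, Lyz2 at 3.90 ± 1.01 on the log2 scale (edgeR adjusted p = 0.114), and 4 were lower. The part of all these markers in the difference was not tested.

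Of the mitochondrial genes, mt-Nd6 had the largest siLP difference at -0.72 ± 0.40 on the log2 scale, followed by mt-Nd5 at -0.48 ± 0.33 and mt-Nd4 at -0.41 ± 0.30. The edgeR adjusted p of these 3 were 0.612, 0.713 and 0.744, and without the library labelled siLP CAR-deficient a the values were -0.87, -0.58 and -0.49. mt-Atp8 had -0.01 ± 0.38. mt-Nd6 was at 476, 206, 299, 525, 191 and 199 CPM in the spleen libraries (wild type a, b, c, then CAR-deficient) and at 282, 136, 132, 269, 195 and 136 CPM in siLP. The organs overlapped for mt-Nd6, with the siLP libraries a above the spleen libraries b of both genotypes.

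Ndufaf2, an assembly factor that acts late in building complex I (GRCm38 chr13:108002715-108158623), had the smallest p in both gut sites. In spleen its wild-type libraries were at 55.1, 28.3 and 39.5 CPM and its CAR-deficient libraries at 66.9, 30.1 and 28.2 CPM. The cLP values were 31.9, 19.9 and 30.9 CPM for wild-type cells, next to 25.1, 19.6 and 20.9 CPM without CAR. The siLP values were 24.7, 24.1 and 18.9 CPM, next to 28.7, 26.9 and 24.9 CPM. The gut libraries were lower on average, with some overlap. Its log2 fold change was -0.75 ± 0.26 in siLP (edgeR adjusted p = 0.314) and -0.75 ± 0.26 in cLP (edgeR adjusted p = 0.142), and DESeq2 called it in cLP, at -0.76 with an adjusted p of 0.0465. Other members with small p in siLP were Atp5f1, the peripheral stalk subunit b, at -0.31 ± 0.15 and Ndufs5 at -0.59 ± 0.32, with edgeR adjusted p of 0.526 and 0.592.

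In cLP no member passed the test against spleen. EdgeR called 0 of 100 members against a background of 3.07%, 2 had an unadjusted p under 0.05, and the median log2 fold change was -0.08 with 66 below 0. That median turned on single libraries: it was 0.20 without CAR-deficient spleen a and -0.30 without wild-type cLP a. All 8 complex I assembly factors were below 0, with a median of -0.49, and none passed the test in edgeR. Markers of other cells moved in the same comparison, with Krt8, Col1a1 and Col1a2 higher and Hba-a1 and Hbb-bs lower in cLP, and their part in these values was not tested. Ndufaf3 had -0.50 ± 0.22 and Atp5s, a coupling factor of the ATP synthase, -0.97 ± 0.46, with edgeR adjusted p of 0.297 and 0.333. Ndufaf6 was the only member whose cLP libraries all lay below the spleen libraries (background 1.16%), and it was at 0.45 and 0 CPM in the cLP libraries a against 6.56 to 21.7 CPM in the other 16. No member lay wholly above spleen in cLP (background 2.31%) or in siLP (1.83%), or wholly below it in siLP (0.37%).

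Between the gut sites, siLP minus cLP, edgeR called 0 of 100 members with a background of 0%, 1 had an unadjusted p under 0.05 and DESeq2 called 0. The median was -0.27, with 76 members below 0, but without the libraries a it was 0.05, with 33 below 0. Uqcrfs1 had -0.37 ± 0.16, Atp5f1 -0.24 ± 0.15 and Cox6a1 -0.41 ± 0.26, and the edgeR adjusted p of the first was 0.531. With 1 library left out the median ran from -0.39, without wild-type siLP a, to -0.005, without wild-type cLP a, and it was -0.31 without the library labelled siLP CAR-deficient a.

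**Figure D3:**
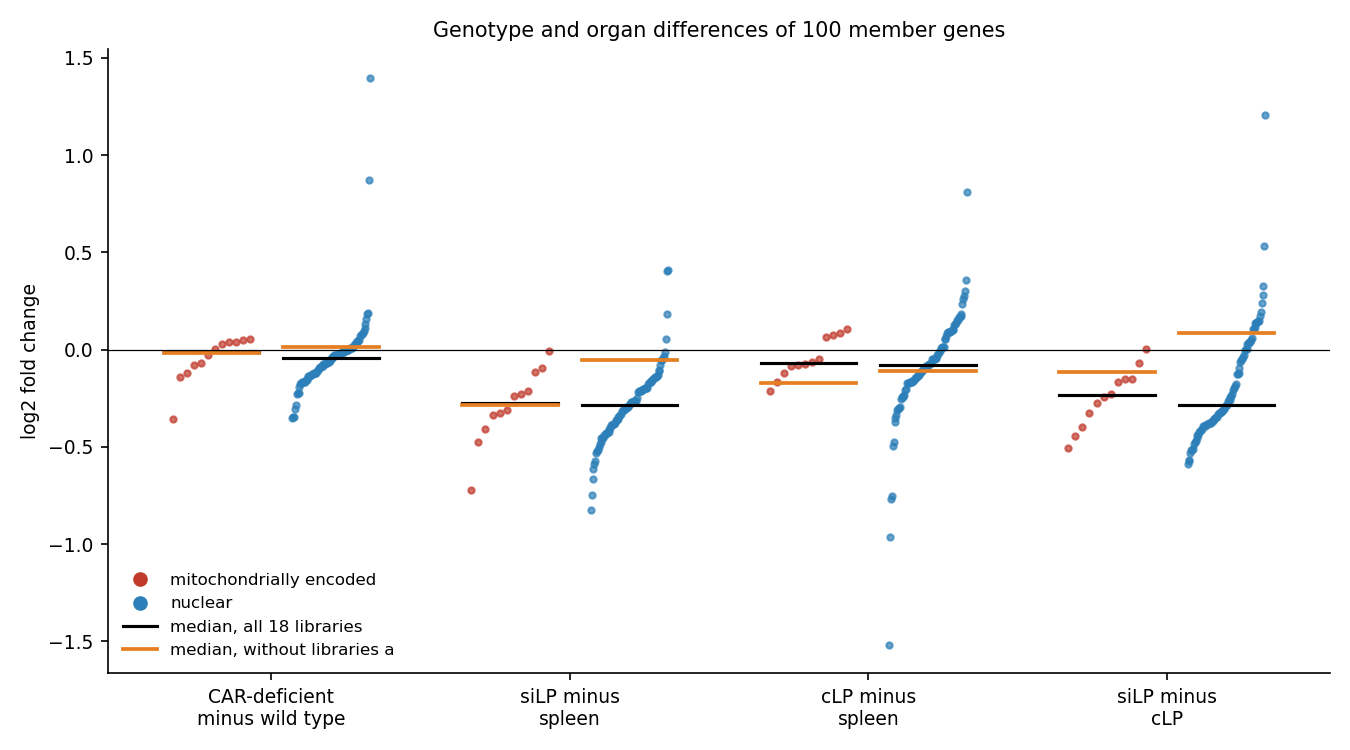
Log2 fold change of the 100 members tested for the genotype averaged over organs and for the 3 organ comparisons, each point a gene, coloured by genome. Bars mark the medians over all 18 libraries and without the libraries a; the nuclear medians of the siLP comparisons lie nearer to 0 when the libraries a are left out.

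More members passed the test by column ending than by genotype or organ, but the models were not alike. The genotype and organ fits had no ending term, so differences between endings were part of the spread they were tested against. With the ending as a replicate block, 1 member passed in those comparisons, mt-Co3 in siLP minus spleen. In the 6 libraries a, 77 of the 100 members tested differed from the mean of b and c within their groups by edgeR, 70 higher and 7 lower, against a background of 21.4% of all genes (9.74% higher and 11.6% lower). The median log2 fold change of the members was 0.82, that of all genes -0.26. All 12 mitochondrial genes were higher, with a median of 0.88, and of the 88 nuclear members 58 were higher and 7 lower, with a median of 0.81. What the endings stand for is not given in the labels. The T cell markers Trac and Cd3g were also higher in the libraries a, at 0.75 ± 0.08 and 0.99 ± 0.11 on the log2 scale, and Lck was lower, and the part of depth, detected genes or cell makeup in the difference was not tested.

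Every mitochondrial gene rose, with mt-Nd6 and mt-Nd1 of complex I in the lead. mt-Nd1 was at 2429 to 3997 CPM in the libraries a (median 3129) and at 980 to 1956 CPM in the others (median 1420). mt-Nd6 had a lowest, median and highest value of 269, 480 and 525 CPM against 132, 177 and 299 CPM, and mt-Co1 9879, 10240 and 11300 CPM against 4549, 5807 and 8764 CPM. mt-Atp8 had 368, 430 and 457 CPM against 150, 183 and 259 CPM. The libraries a lay above all others for mt-Nd1, mt-Co1 and mt-Atp8, while for mt-Nd6 the siLP libraries a lay below wild-type spleen c, the highest of the others.

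On the log2 scale mt-Nd6 had 1.22 ± 0.13, mt-Nd1 1.18 ± 0.09, mt-Atp8 1.14 and mt-Atp6 0.97 ± 0.10. mt-Co2 and mt-Nd5 had 0.90 each, mt-Nd4 0.85, mt-Co1 0.83 ± 0.08, mt-Nd2 0.77 and mt-Co3 0.69 ± 0.07. The smallest rises were mt-Nd4l at 0.58 ± 0.16 and mt-Nd3 at 0.53 ± 0.13, with edgeR adjusted p of 0.0197 and 0.0109, against 1.3e-05 for mt-Nd1. mt-Nd4l lost its call without wild-type cLP a, at an edgeR adjusted p of 0.051. With the chromosome 1 copies added, mt-Co1 had 0.95 ± 0.09 and mt-Nd3 0.51 ± 0.13, and the copy Gm29216 alone rose by 1.18 ± 0.14. mt-Cytb, outside the rule, had 3464, 4800 and 6487 CPM in the libraries a against 1760, 2577 and 3315 CPM in the others, with no overlap.

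The nuclear subunits are given by role, without a test between roles. Among complex I subunits, 27 of 29 accessory subunits rose and 0 fell, with a median log2 fold change of 0.97, whereas of the 7 nuclear core subunits, which carry the electron path, 3 rose and 2 fell, with a median of 0.12. Ndufa12, an accessory subunit, had the largest change at 1.61 ± 0.23 (edgeR adjusted p = 4.60e-04), with 172, 527 and 788 CPM in the libraries a against 117, 152 and 232 CPM. The low value of 172 CPM was the library labelled siLP CAR-deficient a, the only library a inside the range of the others for this gene. Ndufc1 and Ndufa7 had 1.34 ± 0.20 each, Ndufa1, needed for assembly of the membrane arm, 1.32 ± 0.17 and Ndufb8 1.03 ± 0.15. Ndufv1, which binds NADH and the flavin, fell by 1.17 ± 0.29. Ndufs1 had -0.19 and did not pass the test. Of the 8 assembly factors only Ndufaf3 passed, higher.

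Complexes II and III held both rising and other subunits. Sdhb rose by 0.54 ± 0.13 (edgeR adjusted p = 0.00877), with 496, 752 and 1029 CPM against 360, 514 and 691 CPM, while Sdha at 0.04, Sdhc at -0.14 and Sdhd at -0.14 did not pass. In complex III the small subunits Uqcr10 and Uqcr11 rose by 1.27 ± 0.19 and 1.26 ± 0.16, and the core proteins Uqcrc1 and Uqcrc2 fell, by 1.43 ± 0.13 and 0.55 ± 0.11. Uqcrc1 (GRCm38 chr9:108936633-108949623) was at 45.9 to 66.8 CPM in the libraries a and at 121 to 191 CPM in the others, without overlap. Uqcrfs1, the Rieske protein, had -0.18 and did not pass. In complex IV 11 of 15 nuclear subunits rose and 0 fell, among them Cox7a2 at 1.24 ± 0.19, Ndufa4 at 0.97, Cox6b1 at 0.82, Cox8a at 0.74, Cox6a1 at 0.69, Cox4i1 at 0.55 ± 0.10 and Cox5a at 0.48 ± 0.12. Cox7a2l had 0.16 and did not pass.

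In the ATP synthase both directions were found. Of the 5 genes of the F1 head, 1 rose, 1 did not pass and 3 fell, and of the 12 other nuclear members 9 rose and 0 fell. Atp5b, the catalytic beta subunit (GRCm38 chr10:128083273-128090391), was at 316, 213, 282, 212, 462 and 472 CPM in the libraries a of wild-type and CAR-deficient spleen, cLP and siLP in turn. The 12 others ran from 476 to 1118 CPM with a median of 928, so the groups did not overlap but nearly met. Atp5b fell by 1.49 ± 0.22 (edgeR adjusted p = 4.84e-04), Atp5a1, the alpha subunit, by 0.91 ± 0.17 and Atp5d, the delta subunit, by 0.67 ± 0.17. Subunit c split between its genes: Atp5g1 rose by 1.09, with 432, 729 and 1021 CPM against 274, 329 and 365 CPM, while Atp5g2 at 0.29 and Atp5g3 at 0.25 did not pass.

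Ranked over single libraries, 16 members, 8 of them mitochondrial, were higher in every library a than in any other (background 1.23% of genes), and 2, Atp5b and Uqcrc1, were lower (1.38%). Library a was the highest of its own group in all 6 groups for 26 members, the 12 mitochondrial genes included (3.68%), and the lowest for 4, Atp5b, Uqcrc1 and Uqcrc2 among them (4.71%). Uqcrc2 is outside the rule for named genes and was named after its value was seen.

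**Figure D4:**
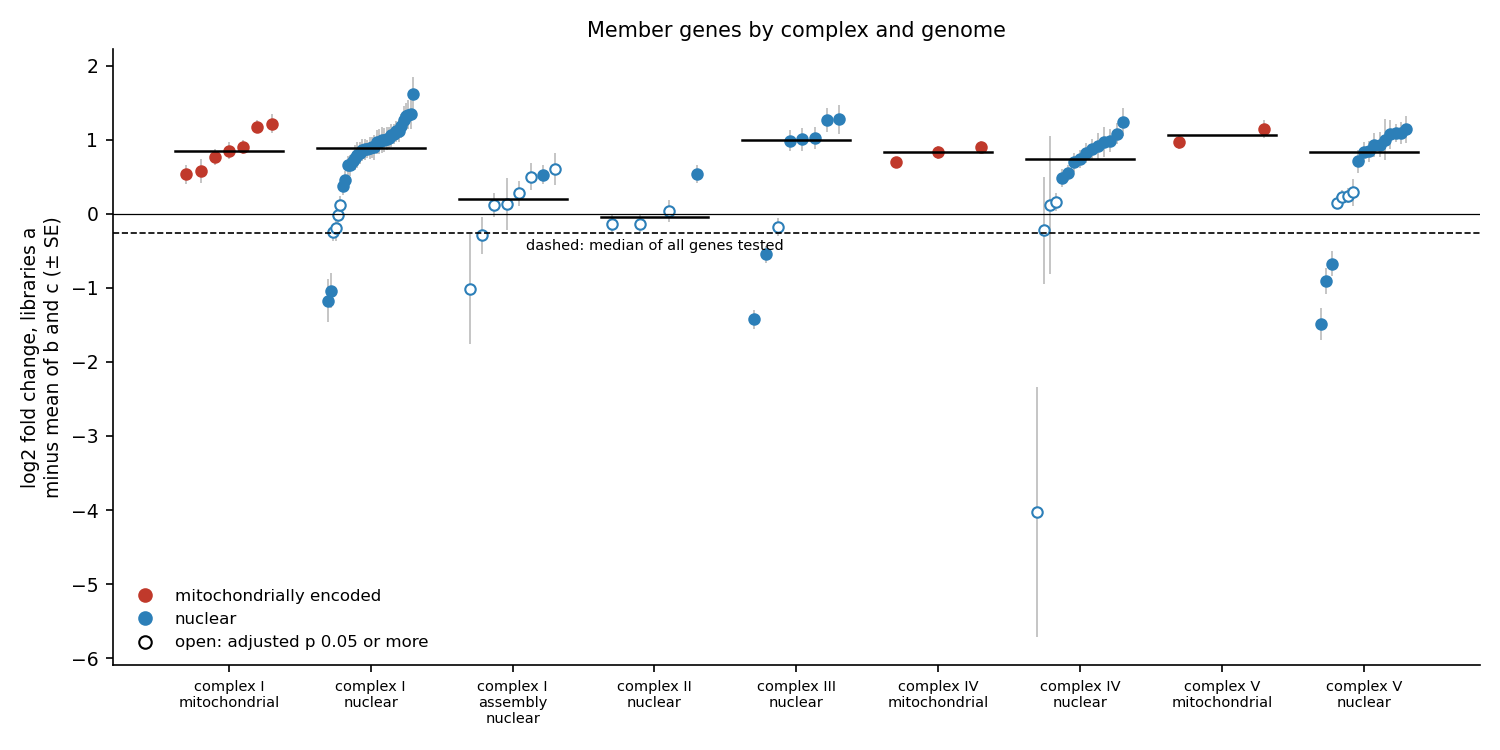
Log2 fold change, libraries a minus the mean of b and c, for each of the 100 members by complex and genome, with SE bars, the median of each set (horizontal bars) and that of all genes (dashed); open symbols have an adjusted p of 0.05 or more. All 12 mitochondrial genes lie above 0, and the genes below 0 are found in nuclear complexes I, III, IV and V and among the assembly factors and complex II.

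The members were shorter than most genes. Those that rose had a median annotated transcript length of 718 bases, those that fell 1660, those that did not pass 1170, and all genes tested 2730. Among genes of up to 1579 bases, all genes had a median log2 fold change of 0.02, with 28.4% called. The 79 members there had 0.85, with 63 called. Among genes of 1580 to 2727 bases all genes had -0.57, with 25.4% called, and the 15 members -0.01, with 11 called. In both ranges the median of the members was above that of all genes. Across the 100 members Spearman's rho of length with the log2 fold change was -0.41, across the 88 nuclear members -0.44, and across all 14876 genes -0.03, as descriptions over genes that share the same libraries. The longest members, Atp5g1 and Ndufb2, have annotated transcripts of 4715 and 4371 bases, and both rose. The part of length in the difference was not tested. Among genes with a mean of at least 40.8 CPM, 44.9% of all genes were called, with a median of 0.09. The 92 members there had a median of 0.85, with 76 called. Spearman's rho of mean CPM with the log2 fold change was 0.40 across the members, 0.41 across the nuclear members and 0.30 across all genes. The part of level in the difference was not tested either.

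**Figure D5:**
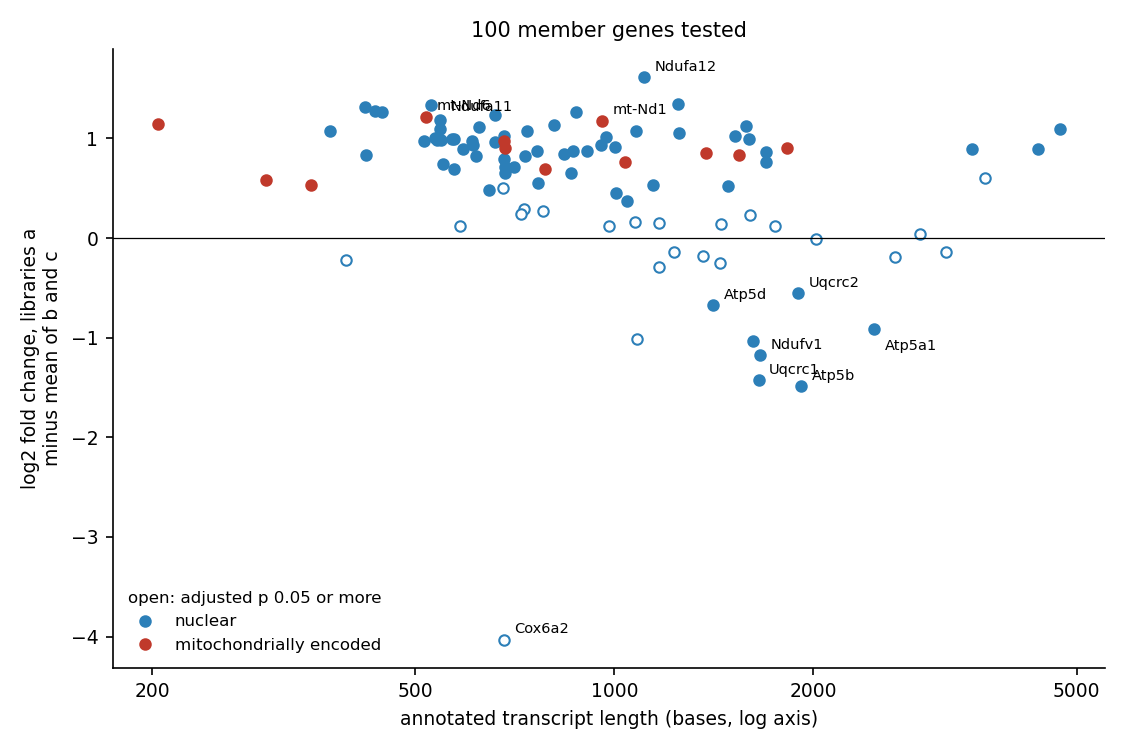
Log2 fold change, libraries a minus the mean of b and c, against annotated transcript length in bases (log axis) for the 100 members tested, coloured by genome; open symbols have an adjusted p of 0.05 or more. Short genes lie mostly above 0, and the members that fell, Atp5b and Uqcrc1 among them, have 1410 bases or more.

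The size of the difference was not the same in every group. As the median over the 100 members of library a minus the mean of b and c, on log2(CPM + 1), it was 0.79 in wild-type and 1.08 in CAR-deficient spleen. The wild-type and CAR-deficient cLP groups had 1.19 and 1.00, and the siLP groups 0.54 and 0.04. The mitochondrial genes were higher in a in all 12 cases in each group, with medians of 0.61, 0.97, 1.12, 0.99, 0.88 and 0.70 in the same order. The nuclear genes had 0.82, 1.10, 1.23, 1.00, 0.51 and 0.02. The library labelled siLP CAR-deficient a thus had mitochondrial genes as high as other libraries a and nuclear genes at the level of b and c. Between b and c the medians lay between -0.11 and 0.39.

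Tested within organs, a comparison added after seeing the data, edgeR called 67 members in spleen (63 higher and 4 lower), against a background of 6.86% (4.5% higher and 2.36% lower). In cLP it called 71 (63 higher and 8 lower), against 11.8% (6.08% higher and 5.75% lower). Ndufa12 had the largest rise in both, 2.03 ± 0.27 in spleen, and Atp5b fell by 1.92 ± 0.24 there. In siLP it called 5 (0.383%; 0.195% higher and 0.188% lower): mt-Nd1 at 1.02 ± 0.12, mt-Co1 at 0.91 ± 0.12, mt-Co2 at 0.83 ± 0.12, mt-Co3 at 0.76 ± 0.09 and, lower, Uqcrc1 at -1.28 ± 0.19. The median of the members was 0.94 for spleen and 1.10 for cLP. For siLP it was 0.26, with 0.81 for mitochondrial and 0.23 for nuclear members. Without the library labelled siLP CAR-deficient a, 6 members were called in siLP with a median of 0.59, and over all organs 81 with a median of 0.98. The 4 added over all organs were Atp5f1 at 0.31, Atp5g3 at 0.37, Ndufaf2 at 0.62 and Ndufaf4 at 0.82, with edgeR adjusted p of 0.0235, 0.0099, 0.0404 and 0.0119. Without that library Ndufa12 had 1.91, mt-Nd6 1.36, mt-Nd1 1.26, Uqcrc1 -1.41 (-1.24 in siLP, edgeR adjusted p = 0.0599) and Atp5b -1.67. In siLP 0 were called without wild-type c or without CAR-deficient c, 1 without wild-type b and 2 without wild-type a. It was 3 without wild-type spleen b or without CAR-deficient spleen b. The spleen count fell to 0 without CAR-deficient a, where the median was 0.85, to 13 without CAR-deficient b and to 34 without CAR-deficient c. The share of all genes called in these left-out fits is not given here. Whether the calls over all genes fell alike can therefore not be read from these counts.

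The difference of the ending effect between siLP and spleen was itself tested, and edgeR called 0 members against a background of 0.0807%. Of the members 49 had an unadjusted p under 0.05, all nuclear, and DESeq2 called 14. The median difference was -0.64 for nuclear and -0.09 for mitochondrial members. Ndufs4, an accessory subunit at the NADH-binding arm, had -0.97 ± 0.22, Atp5b 1.21 ± 0.31 and Ndufa4 -1.11 ± 0.28, with edgeR adjusted p of 0.211, 0.221 and 0.226. Between cLP and spleen edgeR called 0 (background 0.121%), 6 had an unadjusted p under 0.05, DESeq2 called 3, and the median was 0.19. Ndufaf6 and Ndufs1 were among those 3, both more negative in cLP, and Ndufaf6 had the largest value at -5.60 ± 1.10 (edgeR adjusted p = 0.117). The shares of all genes with an unadjusted p under 0.05, or called by DESeq2, are not given here for either comparison. Those counts of members therefore stand without a background.

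Promoter letters were read from RefSeq windows on GRCm38.p6, 250 bases before to 50 after the start, which matched 74 nuclear members among 27025 genes. Short motifs were searched on both strands. GCATGCGC, the core of the site of NRF1, a regulator of respiratory chain genes, occurred in 12 members (16.2%) and in 2.8% of all windows. CCGGAAGT, an ETS-type site, occurred in 6.76% of members against 4.0%, and AAGATGGC, a YY1-type site, in 12.2% against 2.88%. Matches upstream of 4 members are shown on the gene's strand, with the NRF1-type letters or their reverse complement in capitals, because this was the motif found in the most members and the matches lie in genes of complexes I, II and IV and in an assembly factor.
Ndufa11 (chr17:56717691-56717720, plus strand): acctgcactgcGCGCATGCgcgcacgcctt
Cox6a1 (chr5:115349102-115349131, minus strand): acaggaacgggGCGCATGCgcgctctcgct
Sdhb (chr4:140961206-140961235, plus strand): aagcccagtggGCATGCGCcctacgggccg
Ndufaf4 (chr4:24897959-24897988, plus strand): cccagatgtctGCGCATGCgcctgtgcgga

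The matches began 60 bases before the start in Ndufa11, 162 in Cox6a1, 54 in Sdhb and 113 in Ndufaf4. In the libraries a Ndufa11 rose by 1.19 ± 0.16, Cox6a1 by 0.69 ± 0.13 and Sdhb by 0.54 ± 0.13, and Ndufaf4 had 0.61 ± 0.21 (edgeR adjusted p = 0.0581). Uqcrc1, which fell, also had a match, after its start. The median log2 fold change for the ending was 0.68 with the NRF1-type letters and 0.84 without them, 0.74 and 0.83 for the ETS-type letters, and 0.93 and 0.82 for the YY1-type letters. A match is a run of letters and not a binding site.

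Other genes of the pathway were read from lists chosen by function. For the ending, the mitochondrial ribosome had 29 of 78 genes higher and 4 lower, with a median log2 fold change of 0.35. All lists stand beside 9.74% higher and 11.6% lower over all genes. The ribosomal genes with the smallest p were Mrpl42 at 1.48 ± 0.21 and Mrpl54 at 0.75 ± 0.11. The assembly factors of complexes II to V had 12 of 32 higher and 2 lower, with Cox16 at 1.13 ± 0.14 and Cox20 at 1.30 ± 0.17. Of the 13 genes for mitochondrial DNA upkeep and transcription, 3 were higher, among them Mterf3 at 0.79 ± 0.15 and the single-strand binding protein Ssbp1 at 0.95 ± 0.19, and 1 was lower. Electron carriers had 1 of 15 higher and 2 lower. Cyc1, a complex III subunit placed in that list, fell by 1.06 ± 0.20. Of 8 transcriptional regulators 1 passed, Yy1 at 0.67 ± 0.19. Of the 14 citric acid cycle genes 0 were higher and 7 lower, among them Mdh2 falling by 0.74 ± 0.12 and Idh2 by 2.65 ± 0.49.

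For the genotype averaged over organs edgeR called 0 genes in each of these lists. The mitochondrial ribosome had 67 of 78 genes below 0, with a median of -0.14, and its smallest p belonged to Mrps6 at -0.58 ± 0.19 (edgeR adjusted p = 0.591). For siLP minus spleen 0 were called too, with 68 of 78 mitochondrial ribosome genes below 0 and a median of -0.32. For cLP minus spleen 4 passed, 1 of 32 assembly factors, 2 of 78 mitochondrial ribosome genes and 1 of 13 genes for mitochondrial DNA upkeep, against 3.07% of all genes. Sdhaf2, which attaches the flavin to Sdha, fell by 0.74 ± 0.19 (edgeR adjusted p = 0.0451), Mrps18b by 1.09 ± 0.26 and Mrpl16 by 0.85 ± 0.22. Polg2, the accessory subunit of the mitochondrial DNA polymerase, rose by 1.16 ± 0.27. The markers of epithelial, stromal and erythroid cells that moved in this comparison apply here too, and their part in these 4 changes was not tested.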

How the data were processed

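The deposited table holds estimated counts for 34162 genes in 18 libraries, per the file headers, and the 36 other columns of values per library were not used because the endings tie no column to 1 sample. The submitters' processing notes name Salmon, DESeq2 and mm10 without versions. Symbols and 1 transcript length per gene (the APPRIS principal isoform) came from GENCODE on GRCm38, and TPM was computed from them and the counts. Counts were rounded and tested with edgeR 4.0.16 (R 4.3.3, limma 3.58.1; quasi-likelihood, TMM, filterByExpr) over 14876 genes, with Benjamini-Hochberg adjustment at 0.05. All 6 groups shared 1 spread, and the column ending was tested with ending terms added. The genotype and organ comparisons had no ending term, so their spread includes differences between endings. Scripts were tested on simulated data. Alternatives were DESeq2 1.42.0, RLE factors, no filter, library sizes without mitochondrial genes, the ending as a block, no libraries a and leaving out each library. Named genes were all mitochondrial members, per comparison up to 6 called members per direction by size (mean of at least 5 CPM) or the 3 smallest p, marker subunits and isoform sets, and the highest and lowest per complex. The members and lists were chosen with earlier results of these data known. The values of 1 member are not reported here.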

Additional observations from a re-analysis of the deposited data

How the results depend on the processing

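No member passed the edgeR test in the genotype and organ comparisons under any left-out library (0 to 0 members). The exceptions among the other alternatives were cLP minus spleen, where DESeq2 called 1 member, and siLP minus spleen, where the column ending as a replicate block gave 1, mt-Co3 at -0.36 ± 0.08 (edgeR adjusted p = 0.0425). The columns carry no replicate numbers, and same-ending libraries deviated together in 40 of 45 pairs (correlation over 0.1), so the block is a hint from the data, not from the design. For the column ending, 77 members were called, 82 with DESeq2, 76 without a filter and 74 to 81 without 1 library, and 73 of the 77 kept their call and direction in every alternative. The 4 that did not were Ndufs3, Ndufs8, Atp5s and mt-Nd4l. Within organs, in comparisons and alternatives chosen after seeing the data, leaving out 1 library gave 0 to 69 members in spleen, 57 to 75 in cLP and 0 to 7 in siLP, and DESeq2 called 16 in siLP. For the difference of the ending effect from spleen, left-out libraries gave 0 to 1 members in siLP and 0 to 1 in cLP, and DESeq2 called 14 and 3. The cause of these changes was not tested. The share of all genes called is not given here for DESeq2, for the replicate block or for the left-out libraries. The counts of members in those fits therefore stand without a background. No value called in the main comparison changed sign.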
